A study of Saccharomyces cerevisiae with 17 samples.

Results

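Pyruvate decarboxylase turns pyruvate into acetaldehyde and carbon dioxide, and the genes for it were followed in a pair of wine yeasts through a fermentation. The 4 genes described are PDC1, PDC5 and PDC6, which encode the isoenzymes, and PDC2, which encodes a regulator of their transcription. They were taken by symbol in the array annotation, out of 5449 genes of Saccharomyces cerevisiae on the array, and each was read by 1 probe set. Earlier results of these data were known when the 4 genes were chosen. In the reference strain S288C (assembly R64) PDC1 (YLR044C) lies on chromosome XII from 232390 to 234081 and PDC5 (YLR134W) on the same chromosome from 410723 to 412414. PDC6 (YGR087C) lies on chromosome VII from 651290 to 652981, and PDC2 (YDR081C) on chromosome IV from 607304 to 610081.

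In fermenting yeast, pyruvate from glycolysis is decarboxylated in the cytosol and the acetaldehyde is then reduced to ethanol, which restores the NAD+ that glycolysis needs. Pdc1 is the main isoenzyme of cells growing on sugar. Pdc5 takes over when PDC1 is lost, and its gene is also induced when thiamine is short, thiamine diphosphate being the cofactor of all 3 enzymes. Pdc6 is a minor isoenzyme, low on glucose and induced when sulfur is limiting. Pdc2 is needed for full transcription of PDC1 and PDC5 and, with Thi2 and Thi3, of the genes of thiamine synthesis.

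VIN13 and BM45 are industrial strains, here fermenting must of Colombar grapes with little oxygen, and their total RNA was read on Affymetrix arrays as biotin-labelled target. Samples were taken at day 2, in exponential growth, at day 5, early in stationary phase, and at day 14, late in it. VIN13 had 3 arrays at each day, and BM45 had 2 at day 2, 3 at day 5 and 3 at day 14, which makes 17 arrays in 6 groups. The labels name no treatment, deletion or transgene in either strain and do not say whether replicates were separate cultures, so a p-value here speaks for the spread among these arrays, which may be technical.

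Levels are the deposited intensities on a linear scale. Differences are those of group means of log2(intensity + 16) ± SE, from 1 limma fit to all arrays, with p-values adjusted over the 5449 genes, and rises, falls and differences are those with an adjusted p under 0.05. The number of arrays limits the precision. The median gene was not at 0 in every comparison: at day 14 it was at -0.19 against day 5 and -0.24 against day 2 in BM45, and at day 2 it was at -0.13 for VIN13 against BM45. The median gene had an intensity between 867 and 1150.4 on the single arrays, and 100.7 was taken as the background bound, so that all 4 genes lay above it on every array. RNA quality was uneven. The ratio of 3' to 5' signal of the ACT1 control, which rises as RNA degrades, was 5.55 on VIN13 day 2 replicate 1 and 5.33 on BM45 day 2 replicate 4, against 1.40 to 3.003 on the other 15 arrays. VIN13 day 5 replicate 3 at 2.86 and VIN13 day 14 replicate 3 at 2.37 had the highest ratio of their groups. These 4 arrays were left out together as one of the alternatives. They were chosen with earlier results of these data known, and VIN13 day 2 replicate 3, at 3.003, was kept. BM45 at day 2 then holds 1 array, and so it does when either of its arrays is left out alone, so the p-values of such day 2 comparisons assume that this array varies like those of the other groups, which supply the spread. The spread is shared, so leaving out an array also changes the p-values of comparisons that do not use it. Because the RNA came from whole cultures, fewer expressing cells and less RNA per cell cannot be told apart.

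PDC1, the main isoenzyme gene, stayed at nearly one level in both strains from exponential growth to day 14. In VIN13 its intensity was 12971, 13425 and 13745 at day 2, 14009, 14208 and 13836 at day 5, and 13747, 13598 and 14009 at day 14. In BM45 it was 14289.5 and 13917 at day 2, 14908, 14707 and 14629 at day 5, and 12635, 13056 and 12886 at day 14. BM45 at day 5 was the highest group and BM45 at day 14 the lowest. In the order of the 6 groups BM45 day 5 stood apart from BM45 day 2, and each further pair of neighbours overlapped in its arrays. The highest group mean was 1.147 times the lowest, and 0.46% of genes had a narrower range of group means, the median gene ranging over 2.22-fold. The coefficient of variation within a group was between 0.97% and 2.91%. The highest probe set on an array lay between 15937 and 30409, and whether the signal of PDC1 was compressed near the upper end of the scale was not tested. The same holds for PDC5 in VIN13, at 11304 to 13404 at day 2 and 12562 to 13657 at day 5. It also holds for CDC19 and ADH1, named below, whose group means lay between 12028 and 16477. THI4, also named below, had group means between 12079 and 13743 at days 2 and 5, and the same holds for it.

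PDC5, the isoenzyme gene that responds to thiamine, was the gene of the family on which the strains differed at every day. In VIN13 the arrays had 11304, 13404 and 11868 at day 2, 13284, 13657 and 12562 at day 5, and 10899.6, 8802 and 10528 at day 14. In BM45 they had 9808 and 5425 at day 2, 8047, 9164 and 8344 at day 5, and 2874, 3065 and 3046 at day 14. Every VIN13 array lay above every BM45 array of the same day. Of all genes, 42.1%, 52.0% and 69.7% had arrays of the strains that did not overlap at days 2, 5 and 14. BM45 at day 14 was the lowest group, with a mean of 2995 ± 105 (SD, n = 3), well under the rest, and VIN13 at day 5 the highest with 13168 ± 557 (SD, n = 3). Among neighbours in the order of levels, VIN13 day 5 overlapped with VIN13 day 2, VIN13 day 14 with BM45 day 5, and BM45 day 5 with BM45 day 2.

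PDC6, the minor isoenzyme gene, moved most over the fermentation and had a peak at day 5 in both strains. The VIN13 arrays had 1959.9, 4671 and 5392 at day 2, 6751, 7631 and 8241 at day 5, and 2844, 1366 and 2084 at day 14. The BM45 arrays had 2075 and 1093 at day 2, 5301, 4677 and 5280.2 at day 5, and 449.7, 459 and 481 at day 14. All day 5 arrays of a strain stood above its arrays of the other days, and the 3 arrays of BM45 at day 14 formed a tight group at the bottom. Arrays of days 2 and 5 did not overlap for 46.7% of all genes in VIN13 and 69.8% in BM45. For days 5 and 14 these shares were 55.0% and 84.6%. The highest group mean on the log2 scale was 15.7 times the lowest, and 99.1% of genes had a narrower range, against 87.9% for the 4.38-fold range of PDC5. VIN13 at day 5 and BM45 at day 14 were each apart from their neighbour in the order of levels, and the 3 other pairs of neighbours overlapped. Day 2 was the least certain point, with a coefficient of variation of 45.2% in VIN13 and 43.8% in BM45.

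PDC2, the regulator gene, varied little. The VIN13 arrays had 436, 602 and 565 at day 2, 451, 564 and 487 at day 5, and 669.6, 632 and 682 at day 14. The BM45 arrays had 619.5 and 473 at day 2, 631, 582 and 553 at day 5, and 558, 563 and 556 at day 14. VIN13 at day 14 was the highest group and apart from the next, and all other neighbours overlapped. Its group means ranged over 1.32-fold, and 4.13% of genes had a narrower range.

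**Figure D1:**
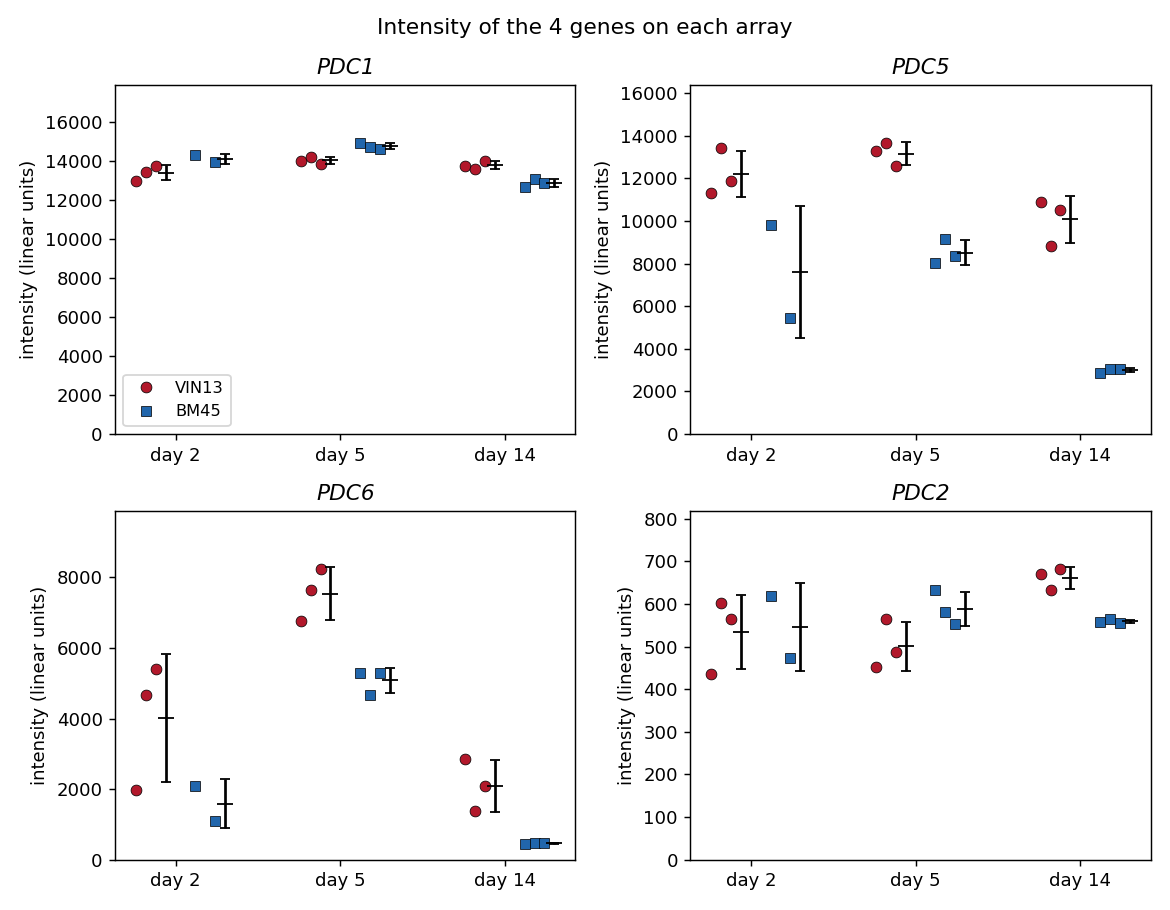
Intensity of PDC1, PDC5, PDC6 and PDC2 (linear units, each axis from 0) on the 17 arrays by day, with VIN13 as red circles to the left and BM45 as blue squares to the right of each day and the group mean ± SD in black (n = 3, and n = 2 for BM45 at day 2). PDC1 lies between 12635 and 14908 on all arrays, PDC5 in BM45 at day 14 between 2874 and 3065, and PDC6 peaks at day 5 in both strains.

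From exponential growth to early stationary phase only PDC6 passed the test among the 4 genes, in both strains. In VIN13 at day 5 against day 2 it rose by 1.03 ± 0.33 (adjusted p = 0.0221, 2.04-fold), where 37.7% of all genes were called, 15.5% as higher and 22.2% as lower. In BM45 it rose by 1.74 ± 0.37 (adjusted p = 0.000998, 3.34-fold), where 56.7% were called, 22.8% as higher and 33.9% as lower. The day 5 arrays lay above the day 2 arrays in both strains, and 46.7% of all genes in VIN13 and 69.8% in BM45 had arrays of these days that did not overlap. The VIN13 rise rested on few arrays: it was 0.58 (adjusted p = 0.111) without day 2 replicate 1, 1.02 (adjusted p = 0.0582) without day 5 replicate 2 and 0.96 (adjusted p = 0.0579) without day 5 replicate 3. Adjusted for the ACT1 ratio, the rises were 0.63 in VIN13 (adjusted p = 0.058) and 0.95 in BM45 (adjusted p = 0.0258), and without the 4 arrays 0.51 in VIN13 (adjusted p = 0.00619) and 1.28 in BM45 (adjusted p = 1.66e-05, with 1 array at day 2). The 2 rises were not shown to differ, with a difference, VIN13 minus BM45, of -0.71 ± 0.49 (95% interval -1.76 to 0.34, adjusted p = 0.375), though it passed without VIN13 day 2 replicate 1 (-1.16, adjusted p = 0.0416) and without the 4 arrays (-0.77, adjusted p = 0.0156, with 1 array of BM45 at day 2). In that comparison 8.66% of genes were called, 6.53% with the higher and 2.13% with the lower change in VIN13.

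PDC5 and PDC1 were not called over this interval. PDC5 differed by 0.11 ± 0.16 in VIN13 (95% interval -0.23 to 0.46) and by 0.22 ± 0.18 in BM45 (-0.16 to 0.61), and PDC1 by 0.07 ± 0.07 in VIN13 and 0.06 ± 0.08 in BM45. The value of PDC5 in BM45 turned with single arrays of day 2, each value then resting on 1 array: it was 0.65 (adjusted p = 0.00122) against replicate 4, with its ACT1 ratio of 5.33, and -0.21 (adjusted p = 0.25) against replicate 2. The difference of the PDC5 changes between the strains was -0.11 ± 0.24, and -0.53 (adjusted p = 0.0352) with BM45 day 2 replicate 4 as the lone array. PDC2 gave -0.08 ± 0.13 in VIN13 and 0.12 ± 0.14 in BM45.

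Between days 5 and 14 the expression of PDC5 and PDC6 dropped in BM45, whereas in VIN13 only PDC6 passed the test for a fall in the main fit. PDC6 fell by 1.90 ± 0.33 in VIN13 (adjusted p = 0.000372), a 3.72-fold fall, where 43.5% of all genes were called, 19.0% as higher and 24.5% as lower. In BM45 it fell by 3.41 ± 0.33 (adjusted p = 4.29e-07), or 10.6-fold, where 67.1% were called, 23.9% as higher and 43.1% as lower. PDC5 fell by 1.50 ± 0.16 in BM45 (adjusted p = 1.23e-06, 2.83-fold). In VIN13 the PDC5 difference was -0.39 ± 0.16 (adjusted p = 0.0618), although its day 14 arrays all lay below its day 5 arrays, and such arrays did not overlap for 55.0% of genes in VIN13 and 84.6% in BM45. That value passed the test with the ACT1 covariate (-0.40, adjusted p = 0.00763). It also passed, narrowly, with quantile normalization (-0.39, adjusted p = 0.0466), median centring (-0.39, adjusted p = 0.0445) and a trended, robust variance (-0.39, adjusted p = 0.0482). Without the 4 arrays, which leaves 1 array of BM45 at day 2, it was -0.33. Without either array of BM45 at day 2, a group outside this comparison, it stayed at -0.39 and only the shared spread was lower.

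PDC1 fell by 0.20 ± 0.07 in BM45 over the late interval (adjusted p = 0.0182), with its day 14 arrays below its day 5 arrays, and in VIN13 it gave -0.02 ± 0.07. The median gene of BM45 was lower by the same amount, -0.19, and relative to it PDC1 gave -0.0044. With each array centred on its median gene PDC1 was at -0.0081 (adjusted p = 0.921). The call also ended without BM45 day 5 replicate 1 (-0.19, adjusted p = 0.0552) or when replicate 1 of BM45 at day 14 was left out (-0.185, adjusted p = 0.061). Relative to the median gene PDC5 of BM45 was still at -1.31 and PDC6 at -3.22. PDC2 rose by 0.40 ± 0.13 in VIN13 (adjusted p = 0.0202) and gave -0.07 ± 0.13 in BM45. The PDC2 call ended without VIN13 day 5 replicate 1 (0.33, adjusted p = 0.0846), without its day 5 replicate 3 (0.38, adjusted p = 0.051) and without its day 14 replicate 4 (0.37, adjusted p = 0.0603).

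Over the whole fermentation, day 14 against day 2, PDC6 was lower at the end in both strains. The difference was -0.86 ± 0.33 in VIN13 (adjusted p = 0.031), where the arrays of the days overlapped, and -1.67 ± 0.37 in BM45 (adjusted p = 7e-04). In the same comparison 63.6% of genes were called in VIN13, 28.2% as higher and 35.5% as lower, and 75.4% in BM45, 28.8% as higher and 46.6% as lower. The arrays of the days did not overlap for 65.0% of genes in VIN13 and 83.0% in BM45. The VIN13 value was -0.69 (adjusted p = 0.114) without day 2 replicate 2, -0.59 (adjusted p = 0.151) without day 2 replicate 3, -0.59 (adjusted p = 0.152) without day 14 replicate 3 and -0.89 (adjusted p = 0.0583) without day 14 replicate 4, and it was -1.31 without day 2 replicate 1. With the ACT1 covariate the BM45 value was -2.51.

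PDC5 fell by 1.28 ± 0.18 in BM45 at day 14 against day 2 (adjusted p = 1.1e-05), and gave -0.28 ± 0.16 in VIN13 (95% interval -0.62 to 0.07, adjusted p = 0.147). The VIN13 value passed with the ACT1 covariate (-0.48, adjusted p = 0.00323), and it was -0.24 without the 4 arrays. Without either array of BM45 at day 2, a group outside this comparison, it stayed at -0.28 and only the shared spread was lower. PDC2 was higher at day 14 in VIN13 by 0.31 ± 0.13 (adjusted p = 0.0423), a call that ended when any one of 9 arrays was left out. These were VIN13 day 2 replicate 1 (0.18, adjusted p = 0.208), VIN13 day 14 replicates 1, 3 and 4, BM45 day 5 replicates 2 and 3, and the 3 arrays of BM45 at day 14. It was 0.16 (adjusted p = 0.195) with the ACT1 covariate and 0.21 (adjusted p = 0.079) without the 4 arrays. PDC1 gave 0.04 ± 0.07 in VIN13 and -0.13 ± 0.08 in BM45, and with median centring the BM45 value was 0.20 (adjusted p = 0.0241).

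**Figure D2:**
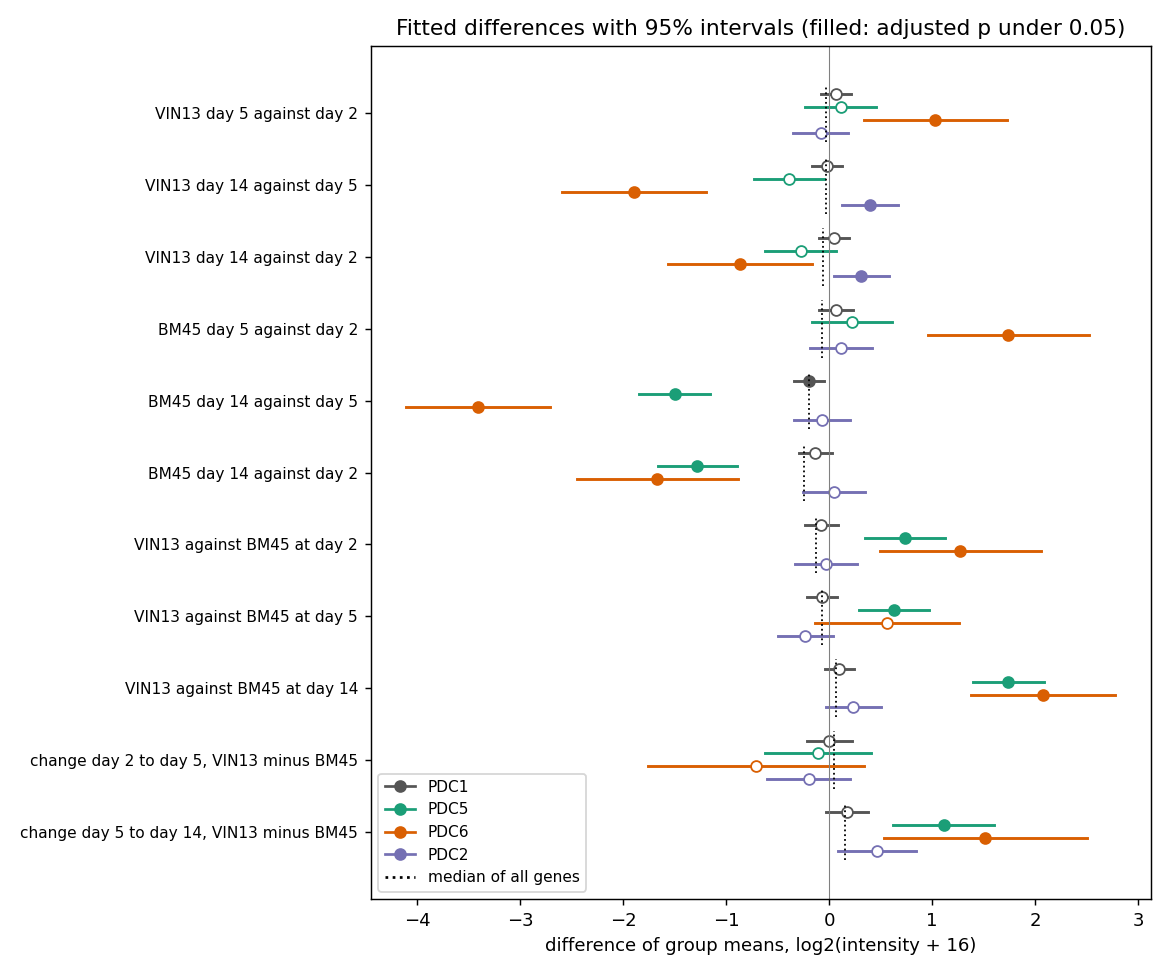
Differences of group means on the log2(intensity + 16) scale for the 4 genes in the 11 comparisons, with 95% intervals from limma, filled points for an adjusted p under 0.05 and a dotted line at the median of all genes. PDC6 has the widest spread, at -3.41 in BM45 from day 5 to day 14, and PDC1 stays within 0.20 of no change.

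Set against BM45, VIN13 had a higher PDC5 signal at each day and a higher PDC6 signal at days 2 and 14. At day 2 PDC5 was higher in VIN13 by 0.74 ± 0.18 (adjusted p = 0.00686, 1.67-fold), where 31.2% of genes were called, 7.95% as higher and 23.3% as lower in VIN13, and 42.1% did not overlap. PDC6 was higher by 1.28 ± 0.37 (adjusted p = 0.0161, 2.42-fold), with overlapping arrays. Both values leaned on BM45 day 2 replicate 4. Without it PDC5 was at 0.31 (adjusted p = 0.118) and PDC6 at 0.82 (adjusted p = 0.168), and without replicate 2 of that group PDC5 was at 1.16. The PDC6 call also ended without VIN13 day 2 replicate 2 (1.10, adjusted p = 0.0582) or replicate 3 (0.9985, adjusted p = 0.0641). Without the 4 arrays, 2 VIN13 arrays against 1 of BM45, the values were 0.36 for PDC5 (adjusted p = 0.016) and 1.27 for PDC6 (adjusted p = 0.0001).

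At day 5 PDC5 was higher in VIN13 by 0.63 ± 0.16 (adjusted p = 0.0102, 1.55-fold), where 25.2% of genes were called, 9.89% as higher and 15.3% as lower in VIN13. PDC6 gave 0.56 ± 0.33 (95% interval -0.13 to 1.26, adjusted p = 0.226). Its VIN13 arrays all lay above its BM45 arrays, the arrays of the strains did not overlap for 52.0% of genes, and it passed without the 4 arrays (0.50, adjusted p = 0.00449) and with the ACT1 covariate (0.82, adjusted p = 0.0147).

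The strain differences of PDC5 and PDC6 had their largest values at day 14. PDC5 averaged 10077 ± 1119 in VIN13 and 2995 ± 105 in BM45 (SD, n = 3 each), a log2 difference of 1.74 ± 0.16 (adjusted p = 9.07e-07, 3.34-fold). PDC6 averaged 2098 ± 739 in VIN13 and 463 ± 16 in BM45 (SD, n = 3 each), a difference of 2.08 ± 0.33 (adjusted p = 9.94e-05, 4.23-fold). In this comparison 53.5% of genes were called, 32.4% as higher and 21.1% as lower in VIN13, and 69.7% did not overlap, as none of the 4 genes did. The difference of PDC6 was larger in size than that of 99% of genes and that of PDC5 larger than that of 98.4%. Both calls held without any single array and without the 4 arrays (1.83 for PDC5 and 2.35 for PDC6). The ACT1 ratio was 1.97 ± 0.37 in VIN13 and 1.43 ± 0.033 in BM45 at this day (SD, n = 3 each), and with it as a covariate the values were 1.88 and 2.37.

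PDC1 and PDC2 did not pass the test between the strains at any day. PDC1 gave -0.08 ± 0.08 at day 2, -0.07 ± 0.07 at day 5 and 0.10 ± 0.07 at day 14, VIN13 minus BM45. PDC2 gave -0.03 ± 0.14, -0.23 ± 0.13 and 0.24 ± 0.13 at the same days, and it passed at day 14 with the ACT1 covariate (0.34, adjusted p = 0.0072) and without the 4 arrays (0.27, adjusted p = 0.0197). A strain difference in the intensity of a probe set and a difference in how well the probes match each strain's gene cannot be told apart.

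The late fall itself differed between the strains for PDC5 and PDC6. The change from day 5 to day 14 in VIN13 minus that in BM45 was 1.11 ± 0.23 for PDC5 (adjusted p = 0.00213) and 1.52 ± 0.46 for PDC6 (adjusted p = 0.0206). Here 34.2% of genes were called, 23.8% with the higher and 10.3% with the lower change in VIN13, and the median gene was at 0.15. PDC5 kept its call without any single array, but whether its signal in VIN13 was compressed near the upper end of the scale was not tested. The PDC6 call ended narrowly without VIN13 day 5 replicate 1 (1.44, adjusted p = 0.0515) or VIN13 day 14 replicate 1 (1.27, adjusted p = 0.0543), and held without the 4 arrays (1.86, adjusted p = 7.37e-06). PDC1 gave 0.17 ± 0.10 (adjusted p = 0.176) and PDC2 0.47 ± 0.18 (adjusted p = 0.0558). PDC2 passed without VIN13 day 5 replicate 2 (0.55, adjusted p = 0.0405) and without VIN13 day 2 replicate 1 (0.47, adjusted p = 0.0231). Arrays of day 2 lie outside this difference. Leaving out that VIN13 array or either BM45 array of day 2 kept PDC2 at 0.47 and only lowered the shared spread.

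Within groups PDC5 and PDC6 tended to be lower at a higher ACT1 ratio, but not in every group. Over all groups the within-group slope of the log2 value of PDC6 was -0.66 per doubling of the ACT1 ratio, that of PDC5 -0.32, that of PDC2 -0.24 and that of PDC1 -0.03, against -0.05 for the median gene. At day 2, VIN13 replicate 1 had both the highest ratio and the lowest PDC6, 1959.9 against 4671 and 5392 on the other VIN13 arrays. BM45 day 2 replicate 4, with a ratio of 5.33, had the lower PDC5 and PDC6 of its pair. In VIN13 at day 14, replicates 1, 4 and 3 had ratios of 1.63, 1.90 and 2.37. Their PDC6 read 2844, 2084 and 1366, and their PDC5 10899.6, 10528 and 8802, in the same order. Other arrays went the other way: VIN13 day 5 replicate 3, with the highest ratio of its group, had the highest PDC6 there, 8241 against 6751 and 7631, and VIN13 day 2 replicate 3 at a ratio of 3.003 had more PDC6 than replicate 2 at 1.70. The part of RNA quality in the differences of days 2 and 14 beyond the covariate fit was not tested. At days 5 and 14 the BM45 ratios lay between 1.40 and 1.61.

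**Figure D3:**
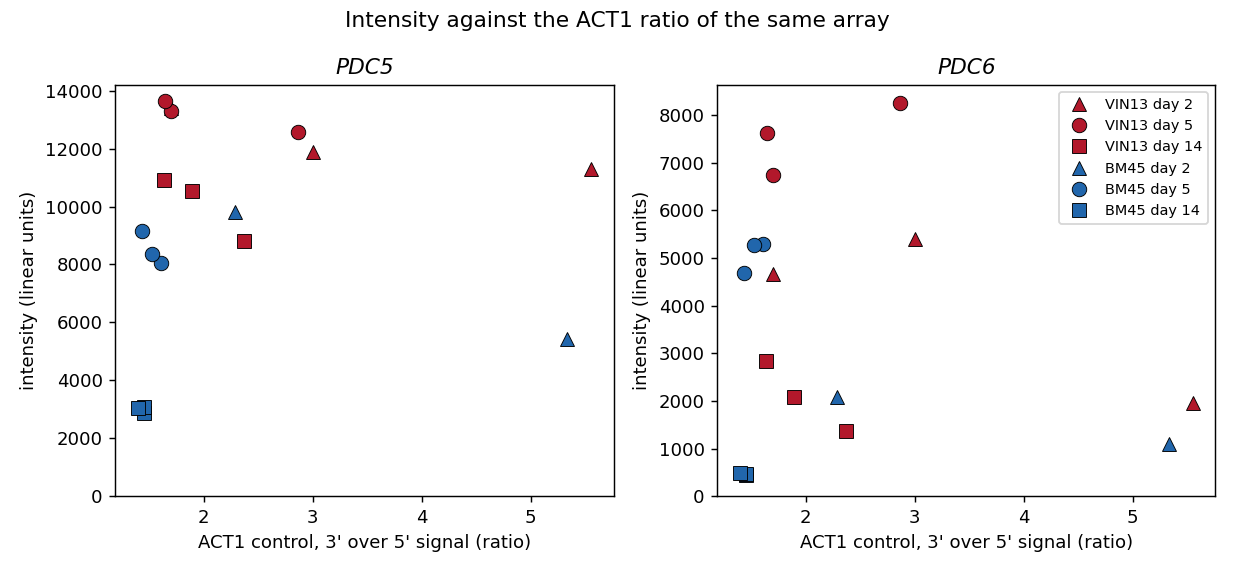
Intensity of PDC5 (left) and PDC6 (right) on each of the 17 arrays against the ratio of 3' to 5' signal of the ACT1 control on the same array, with VIN13 in red, BM45 in blue, and triangles, circles and squares for days 2, 5 and 14. The 2 arrays with ratios above 5 are both of day 2, and the BM45 arrays of day 14 have ratios of 1.40 to 1.45 beside the lowest values of both genes.

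PDC1, PDC5 and PDC6 are close paralogs, so that their probe sets are open to cross-hybridisation. Their sequences were not used here. On the BM45 arrays of day 14 the PDC5 probe set read 2874 to 3065 while that of PDC1 read 12635 to 13056, and the PDC6 probe set read 449.7 to 481.

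The genes around the pyruvate branch point were set beside the family by lists of known members. The list of pyruvate supply and other pyruvate uses had 18 genes, all measured. CDC19, the main pyruvate kinase gene, gave -0.03 in VIN13 and -0.05 in BM45 at day 5 against day 2 and -0.01 and -0.07 at day 14 against day 5, none of them called. From day 5 to day 14, 11 of the 18 fell and 1 rose in VIN13 (median -0.30, all genes -0.03), where 24.5% of all genes fell and 19.0% rose. In BM45, 10 fell and 3 rose (median -0.61, all genes -0.19), where 43.1% fell and 23.9% rose. Among those that fell was PTC5, a phosphatase gene of the pyruvate dehydrogenase complex, by 0.99 ± 0.11 in VIN13, and it fell by 1.69 ± 0.11 in BM45. PYC2, a pyruvate carboxylase gene, fell by 1.39 ± 0.10 in BM45, as did PKP2, a kinase gene of pyruvate dehydrogenase, by 1.44 ± 0.11. In VIN13 the acetolactate synthase subunit gene ILV6 fell by 1.32 ± 0.18 and the dehydrogenase subunit gene LAT1 by 0.68 ± 0.10.

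At day 14, 7 of the 18 pyruvate genes were higher and 1 was lower in VIN13 than in BM45 (median 0.16, all genes 0.07), with PYC2 at 1.82 ± 0.10, PKP2 at 0.96 ± 0.11 and PTC5 at 0.82 ± 0.11. With the 4 arrays left out 10 were higher and 2 lower, where 69.8% of all genes were called against 53.5% with all arrays. The early interval moved fewer of them, as it did of all genes. There 15.5% of all genes rose and 22.2% fell in VIN13, and 22.8% rose and 33.9% fell in BM45. At day 5 against day 2, 4 rose and 1 fell in VIN13 (median 0.07), and 4 rose and 3 fell in BM45 (median -0.08), against 5 that rose and 8 that fell in BM45 without the 4 arrays, where 62.7% of all genes were called. PTC6, another phosphatase gene of the complex, rose by 0.95 ± 0.31 in VIN13 and 1.48 ± 0.34 in BM45, and MPC3, a subunit gene of the mitochondrial pyruvate carrier, rose by 0.74 ± 0.15 in VIN13. Over days 2 to 14 MPC3 rose by 1.08 ± 0.15 in VIN13 and 1.85 ± 0.17 in BM45.

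Acetaldehyde, the product of the enzyme, is reduced by alcohol dehydrogenases or oxidised by aldehyde dehydrogenases, and 10 such genes were listed and measured. ADH1, the main gene of ethanol formation, gave -0.04 in VIN13 and -0.01 in BM45 at day 5 against day 2 and was not called. At day 14 against day 5 it was at -0.02 in VIN13, not called, and it fell by 0.18 in BM45, near the -0.19 of the median gene there. ADH2, of ethanol oxidation, rose from day 5 to day 14 by 0.78 ± 0.16 in VIN13 and 1.09 ± 0.16 in BM45, so its direction was opposite to that of PDC6. ALD3, an aldehyde dehydrogenase gene induced by stress, rose by 1.23 ± 0.18 in VIN13 and 1.63 ± 0.21 in BM45 at day 5 against day 2, and fell by 0.63 ± 0.18 in VIN13 and 1.67 ± 0.18 in BM45 after it. ALD6, the main cytosolic acetaldehyde dehydrogenase gene, fell by 1.20 ± 0.11 in VIN13 and 0.89 ± 0.12 in BM45 at day 5 against day 2. Of the 10 genes, 1 rose and 3 fell late in VIN13 (median -0.22), near the 19.0% and 24.5% of all genes, and 2 rose and 6 fell in BM45 (median -0.31), against 23.9% and 43.1% of all genes. At day 14, 2 were higher and 1 lower in VIN13 than in BM45 (median 0.25), against 32.4% and 21.1% of all genes. These were ADH5 at 1.04 ± 0.16, ADH4 at 0.71 ± 0.14 and ADH2 at -1.10 ± 0.16. With the 4 arrays left out 6 were higher and 1 lower, near the 69.8% of all genes called in that setting.

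The list of other decarboxylase-like genes holds ARO10 and THI3, which moved differently. ARO10, which encodes the 2-keto acid decarboxylase of the Ehrlich pathway, rose from day 5 to day 14 by 1.80 ± 0.11 in VIN13 (adjusted p = 1.47e-07) and by 1.85 ± 0.11 in BM45 (adjusted p = 1.13e-08), over the interval in which PDC6 fell. At day 5 it had 217 ± 9.9 in VIN13 and 138 ± 6.3 in BM45 (SD, n = 3 each), and the difference of its early changes between the strains was 1.33 ± 0.17 (adjusted p = 0.000623). THI3, a decarboxylase-like gene that acts as a regulator of thiamine genes, gave 0.06 ± 0.18 in VIN13 over the late interval and fell by 0.61 ± 0.18 in BM45 (adjusted p = 0.0087). At day 14 THI3 was higher in VIN13 than in BM45 by 0.48 ± 0.18 (adjusted p = 0.0399). The difference of its late changes was 0.67 ± 0.26 (adjusted p = 0.0584).

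Regulators of PDC transcription formed a list of 7 genes that includes PDC2 itself and THI3. GCR1, which encodes an activator of glycolytic genes, rose at day 5 against day 2 by 1.08 ± 0.15 in VIN13 and 2.01 ± 0.17 in BM45. From day 5 to day 14 it gave -0.12 in VIN13, not called, and fell by 1.44 ± 0.15 in BM45. The differences of these changes were -0.93 ± 0.23 early (adjusted p = 0.0248) and 1.32 ± 0.22 late (adjusted p = 0.000641). RAP1, which encodes a general activator that works with Gcr1, went the other way: its early and late differences were 0.81 ± 0.15 (adjusted p = 0.0047) and -1.35 ± 0.14 (adjusted p = 3.58e-05). GCR2, whose product is the partner of Gcr1, had a late difference of -0.69 ± 0.22 (adjusted p = 0.0236). At day 14, 3 of the 7 were higher and 2 were lower in VIN13 than in BM45 (median 0.24, all genes 0.07). Of all genes 32.4% were higher and 21.1% lower. The largest differences were those of GCR1, higher in VIN13 by 1.42 ± 0.15, GCR2 at -0.86 ± 0.15 and RAP1 at -0.71 ± 0.10. TYE7, another activator gene of glycolysis, rose over days 2 to 14 by 1.54 ± 0.26 in VIN13 and 1.90 ± 0.29 in BM45. From day 5 to day 14, 3 of the 7 rose and none of the others passed the test in VIN13 (median 0.33), and 2 rose and 3 fell in BM45 (median -0.07). Of all genes 19.0% rose and 24.5% fell in VIN13, and 23.9% rose and 43.1% fell in BM45. Without the 4 arrays the list median was 0.22 in VIN13 and -0.07 in BM45.

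The thiamine genes, which share Pdc2 as a regulator with PDC5, had 14 of the 19 listed members measured, and the other 5 were not analysed here. From day 5 to day 14, 0 rose and 3 fell in VIN13 (median -0.17, all genes -0.03), and 1 rose and 9 fell in BM45 (median -0.47, all genes -0.19). Of all genes 19.0% rose and 24.5% fell in VIN13, and 23.9% rose and 43.1% fell in BM45. The falls in VIN13 were thus near the share of all genes. THI4, of thiazole synthesis, fell by 0.80 ± 0.11 in BM45 and gave -0.19 in VIN13, not called. THI80, which makes thiamine diphosphate from thiamine, fell by 0.65 ± 0.17 in VIN13 and 1.05 ± 0.17 in BM45. SNO3, of a vitamin B6 synthesis family, fell by 0.55 ± 0.12 in VIN13 and 1.08 ± 0.12 in BM45. Over days 2 to 14, 7 fell in VIN13 (median -0.25) and 13 fell in BM45 (median -0.84), against 35.5% and 46.6% of all genes that fell, and THI13, of the pyrimidine branch and one of a near-identical family, fell by 0.90 ± 0.12 in VIN13 and 2.55 ± 0.14 in BM45. When the 4 arrays were left out, the list median over days 2 to 14 was -0.165 in VIN13 and -0.91 in BM45.

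At day 14, 8 of the 14 thiamine genes were higher and 1 was lower in VIN13 than in BM45, against 32.4% and 21.1% of all genes. Their median was 0.46 without the 4 arrays and 0.36 (all genes 0.07) with all arrays. THI13 was at 1.65 ± 0.12, THI72, a transporter gene, at 1.04 ± 0.38 and PET18 at 0.70 ± 0.08. In the difference of the late changes 6 of the 14 were higher in VIN13 and 0 lower, against 23.8% and 10.3% of all genes. Their median was 0.47 without the 4 arrays and 0.40 (all genes 0.15) with all arrays. The transporter gene THI7 was at 0.75 ± 0.25 (adjusted p = 0.0317), THI4 at 0.61 ± 0.15 (adjusted p = 0.00653) and SNO3 at 0.52 ± 0.17 (adjusted p = 0.0313), beside 1.11 ± 0.23 for PDC5. In the early interval THI13 at 1.24 ± 0.18 (adjusted p = 0.00156) and THI22 at 0.99 ± 0.17 (adjusted p = 0.00399) had the higher change in VIN13. At day 2 with all arrays, 1 of the 14 was higher and 4 were lower in VIN13 (median -0.22, all genes -0.13), near the 7.95% and 23.3% of all genes. Without the 4 arrays, which leaves 1 array of BM45 at day 2, the list median there was -0.37 (all genes -0.19).

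**Figure D4:**
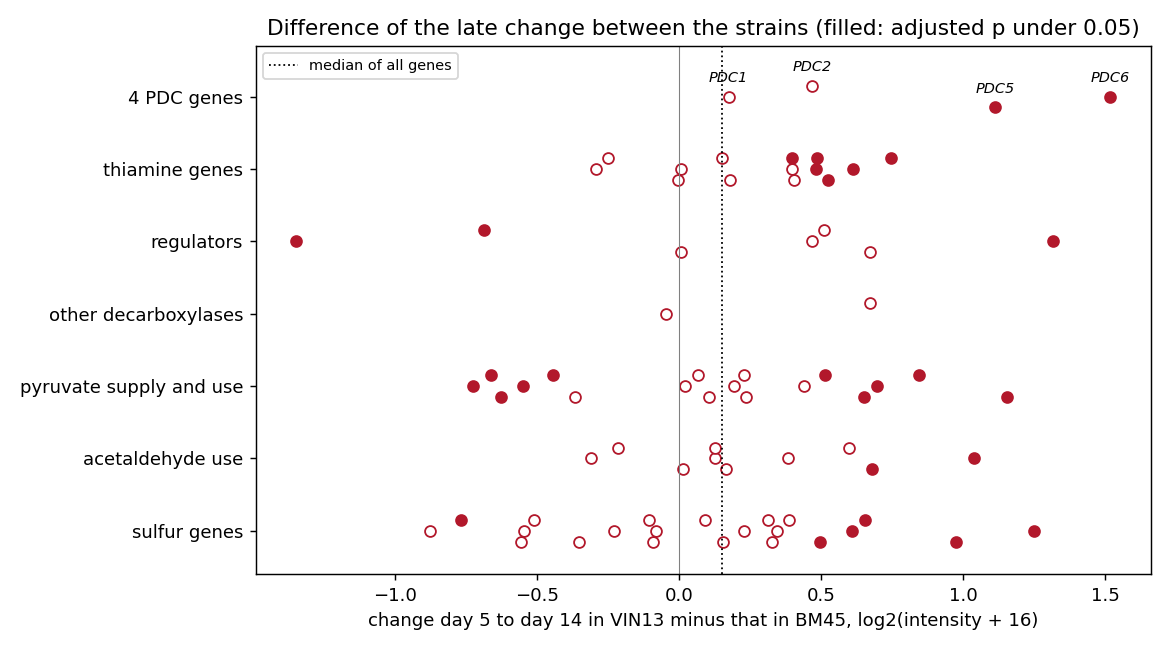
Change from day 5 to day 14 in VIN13 minus that in BM45, on the log2(intensity + 16) scale, for the 4 PDC genes and the genes of 6 lists, each point a gene, filled at an adjusted p under 0.05, with the median of all genes dotted at 0.15. PDC6 at 1.52 and PDC5 at 1.11 lie to the right. Of the 14 thiamine genes 6 are filled to the right and 0 in the opposite direction, against 23.8% and 10.3% of all genes called.

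Genes of sulfate uptake and sulfur limitation, given because PDC6 is known to respond to sulfur supply, had the opposite direction to PDC6 between the strains. Of 22 genes, all measured and 20 above the background bound on average, 1 was higher and 13 were lower in VIN13 than in BM45 at day 2 (median -0.62, all genes -0.13), 0 and 17 at day 5 (median -0.82, all genes -0.07), and 1 and 16 at day 14 (median -0.78, all genes 0.07). Of all genes 23.3%, 15.3% and 21.1% were lower in VIN13 at these days. When the 4 arrays were left out, the lower ones of the list numbered 17, 19 and 16, while the share of all genes called in either direction was 43.4%, 50.9% and 69.8%, against 31.2%, 25.2% and 53.5% with all arrays. PDC6 was higher in VIN13 at days 2 and 14. Over time the list had no common direction: late, 7 rose and 2 fell in VIN13 and 6 rose and 6 fell in BM45, and early, 1 rose and 6 fell in VIN13 and 7 rose and 7 fell in BM45. Of all genes 19.0% rose and 24.5% fell late in VIN13, and 23.9% and 43.1% in BM45. Early, 15.5% of all genes rose and 22.2% fell in VIN13, and 22.8% and 33.9% in BM45. Without the 4 arrays 10 rose late in BM45 and 4 rose early in VIN13, where 80.3% and 52.7% of all genes were called. Of 8 meiosis and spore genes, kept as markers of another state of the culture and 5 of them above the bound, 2 were higher and 1 lower in VIN13 than in BM45 at day 14 (median -0.05, all genes 0.07), against 32.4% and 21.1% of all genes. In BM45, 3 rose and 1 fell late (median 0.04, all genes -0.19), against 23.9% and 43.1%.

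By Pearson's r over the 17 arrays, among the 5116 genes with a mean above the background bound, the patterns most like that of PDC1 were those of YEA4 (r = 0.937), YFH7 (0.929) and VPS53 (0.926). Those most like PDC5 were FKS1, a glucan synthase gene (0.972), PUT1, the proline oxidase gene (0.964), and TAF5 (0.961). Those most like PDC6 were TCB3 (0.971), GYP6 (0.969) and HOM2, of threonine and methionine synthesis (0.968). For PDC2 the nearest were AEP3 (0.828), FKS3 (0.815) and NEO1 (0.814), all less close than those of the isoenzymes. Within the family PDC5 and PDC6 had r = 0.879, PDC1 and PDC6 0.706, and PDC1 and PDC5 0.525, and PDC2 had 0.242 with PDC1, 0.0027 with PDC5 and -0.05 with PDC6. All these values share the same arrays, strains and days and are a description only.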

How the data were processed

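The values are the intensities that the authors deposited for 17 Affymetrix arrays, made with Affymetrix Expression Console per the submitters' processing notes. Which algorithm summarised the probes, and its settings, is not given in the sources used here. Of 10928 probe sets, 5498 belonged to 5449 genes of S. cerevisiae, and 47 genes with several probe sets were read by the one with the highest mean. No further normalization was applied. Values were taken to log2(intensity + 16) and fitted with limma 3.58.1 (R 4.3.3) as 6 groups, with Benjamini-Hochberg adjustment over all genes. The background bound is the 95th percentile of the 1746 Schizosaccharomyces pombe probe sets on each array, averaged over arrays, and 5116 genes had a mean above it. Plots were drawn with matplotlib 3.10.9 and tables made with pandas 2.3.3 and numpy 2.4.6 under Python 3.11.15, and the fit was tested on simulated data.

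The genes, the lists and the 4 arrays left out together were chosen with earlier results of these data known. A list gene was named where it was called and among the 3 largest changes of its list, or where the list had 3 or fewer genes. CDC19, ADH1 and the second value of a pair of strains or intervals were named outside that rule, after their values were seen. Positions, and 12 updated symbols, are from RefSeq (R64). Gene and protein sequences were not used here. Alternatives were the pseudocount, normalization, probe set choice, a filter on dim genes, the variance model, a replicate block, the ACT1 ratio as a covariate, and arrays left out.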

Additional observations from a re-analysis of the deposited data

Results flagged for a closer look

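The change between days differed between the strains, by the interaction term of the limma fit, for 2 of the 4 genes. From day 5 to day 14 the change in VIN13 minus that in BM45 was 1.11 for PDC5 and 1.52 for PDC6 on the log2 scale. Among the regulators the same late difference was 1.32 for GCR1, -0.69 for GCR2 and -1.35 for RAP1, and among the thiamine genes it was 0.61 for THI4, 0.75 for THI7 and 0.52 for SNO3. From day 2 to day 5 it was 1.33 for ARO10, -0.93 for GCR1, 0.81 for RAP1, 1.24 for THI13 and 0.99 for THI22. Of all genes 34.2% were called in the late and 8.66% in the early difference. The groups hold 2 or 3 arrays, too few for a search for single outlying samples.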

How the results depend on the processing

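The number of arrays, 2 or 3 a group, and the uneven RNA of day 2 limit the precision, and the values of PDC1 and PDC2 are small beside the shifts that scaling brings. Of 44 values of the 4 genes, 18 passed the test, and 10 of these passed under every one of the 10 settings and with each of the 17 arrays left out. The share of all genes that passed lay between 8.66% and 75.4% in the 11 comparisons, and the 18 were not tested against it. No called value changed sign. With BM45 day 2 reduced to 1 array, its spread is taken from the other groups. The counts and medians of list genes without the 4 arrays were added after seeing the data. Nothing in the labels pairs the arrays by replicate number, and in no comparison with 3 shared numbers did every same-numbered pair correlate above 0.1, while VIN13 day 14 and day 5 share 2 numbers, with r of 0.41 and 0.57. Deviations from group means of same-numbered arrays correlated with a median r of 0.02 over 31 pairs (range -0.38 to 0.64, 15 over 0.1), against -0.02 over 89 pairs of different numbers. Of the 10 pairs of replicate 2, 9 were over 0.1 (range 0.015 to 0.64). The cause of the changes below was not tested.

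With quantile normalization the sign turned in PDC2 (0.23 for BM45 day 14 against day 5, 0.16 for VIN13 against BM45 at day 2), PDC1 (0.0098 for VIN13 against BM45 at day 2, -0.022 for the change from day 2 to day 5 in VIN13 minus BM45) and PDC5 (0.0026 for the change from day 2 to day 5 in VIN13 minus BM45). With quantile normalization the test was passed in PDC2 (0.32 for BM45 day 5 against day 2, 0.55 for BM45 day 14 against day 2) and PDC5 (-0.39 for VIN13 day 14 against day 5). With median centring the sign turned in PDC2 (0.12 for BM45 day 14 against day 5, 0.14 for VIN13 against BM45 at day 2) and PDC1 (0.20 for BM45 day 14 against day 2, 0.095 for VIN13 against BM45 at day 2, 0.015 for VIN13 against BM45 at day 5, -0.079 for the change from day 2 to day 5 in VIN13 minus BM45, -0.012 for the change from day 5 to day 14 in VIN13 minus BM45). With median centring the test was passed in PDC1 (0.21 for BM45 day 5 against day 2), PDC2 (0.38 for BM45 day 14 against day 2) and PDC5 (-0.39 for VIN13 day 14 against day 5). With median centring the call was lost in PDC1 (-0.0081 for BM45 day 14 against day 5). With a trended, robust variance the test was passed in PDC1 (-0.13 for BM45 day 14 against day 2) and PDC5 (-0.39 for VIN13 day 14 against day 5). With the replicate block the sign turned in PDC1 (-0.0072 for the change from day 2 to day 5 in VIN13 minus BM45). With the replicate block the test was passed in PDC2 (0.54 for the change from day 5 to day 14 in VIN13 minus BM45). With the replicate block the call was lost in PDC6 (-0.72 for VIN13 day 14 against day 2, 1.17 for VIN13 against BM45 at day 2). With the ACT1 covariate the sign turned in PDC5 (-0.16 for BM45 day 5 against day 2, -0.081 for VIN13 day 5 against day 2, 0.082 for the change from day 2 to day 5 in VIN13 minus BM45) and PDC2 (-0.17 for BM45 day 5 against day 2, -0.26 for BM45 day 14 against day 2). With the ACT1 covariate the test was passed in PDC5 (-0.40 for VIN13 day 14 against day 5, -0.48 for VIN13 day 14 against day 2), PDC6 (0.82 for VIN13 against BM45 at day 5) and PDC2 (0.34 for VIN13 against BM45 at day 14, 0.48 for the change from day 5 to day 14 in VIN13 minus BM45). With the ACT1 covariate the call was lost in PDC6 (0.63 for VIN13 day 5 against day 2) and PDC2 (0.16 for VIN13 day 14 against day 2). With the 4 arrays left out the sign turned in PDC5 (-0.21 for BM45 day 5 against day 2, 0.30 for the change from day 2 to day 5 in VIN13 minus BM45) and PDC2 (-0.073 for BM45 day 5 against day 2, -0.14 for BM45 day 14 against day 2). With the 4 arrays left out the test was passed in PDC5 (-0.33 for VIN13 day 14 against day 5, -0.24 for VIN13 day 14 against day 2), PDC6 (0.50 for VIN13 against BM45 at day 5, -0.77 for the change from day 2 to day 5 in VIN13 minus BM45) and PDC2 (0.27 for VIN13 against BM45 at day 14, 0.48 for the change from day 5 to day 14 in VIN13 minus BM45). With the 4 arrays left out the call was lost in PDC2 (0.21 for VIN13 day 14 against day 2). With the 4 arrays left out the number of genes called was 2775 for VIN13 against BM45 at day 5, 1494 for the change from day 2 to day 5 in VIN13 minus BM45, 3178 for the change from day 5 to day 14 in VIN13 minus BM45. With single arrays left out, PDC5 ranged over -0.21 to 0.65 for BM45 day 5 against day 2, -0.45 to -0.30 for VIN13 day 14 against day 5, -0.34 to -0.18 for VIN13 day 14 against day 2, -0.53 to 0.32 for the change from day 2 to day 5 in VIN13 minus BM45, 0.31 to 1.16 for VIN13 against BM45 at day 2. With single arrays left out, PDC2 ranged over -0.22 to 0.16 for VIN13 against BM45 at day 2, 0.40 to 0.55 for the change from day 5 to day 14 in VIN13 minus BM45, -0.073 to 0.30 for BM45 day 5 against day 2, -0.14 to 0.23 for BM45 day 14 against day 2, 0.18 to 0.40 for VIN13 day 14 against day 2, -0.22 to 0.0061 for VIN13 day 5 against day 2, 0.33 to 0.48 for VIN13 day 14 against day 5. With single arrays left out, PDC1 ranged over -0.019 to 0.022 for the change from day 2 to day 5 in VIN13 minus BM45, -0.21 to -0.18 for BM45 day 14 against day 5. With single arrays left out, the number of genes called ranged over 184 to 1348 for the change from day 2 to day 5 in VIN13 minus BM45, 913 to 1674 for VIN13 against BM45 at day 5. With single arrays left out, PDC6 ranged over 0.82 to 1.73 for VIN13 against BM45 at day 2, 0.58 to 1.31 for VIN13 day 5 against day 2, -1.17 to -0.25 for the change from day 2 to day 5 in VIN13 minus BM45, -1.31 to -0.59 for VIN13 day 14 against day 2, 1.27 to 1.79 for the change from day 5 to day 14 in VIN13 minus BM45. The numbers called with all arrays were 1373 at day 5, 472 in the early and 1861 in the late difference.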
